A study of Homo sapiens and Mus musculus with 16 samples.

Results

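The mitosis and spindle genes are a set of 42 genes whose products carry cells into, through and out of mitosis. They were chosen by name, as rows of the deposited expression tables whose gene symbol matched a listed symbol, with the same symbol in mouse case for the mouse line. All 42 were found among the 58713 genes of the human table, and 41 among the 53796 genes of the mouse table, where no row carried the symbol Kif4a. Every member found passed the filter on low values, so that 42 of 14450 tested human genes and 41 of 11341 tested mouse genes were members.

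Total RNA was sequenced from PD-L1 KO and PD-L1 WT cells of MDA-MB-231 (a line from a human breast cancer without hormone receptors) and from Pd-l1 KO and Pd-l1 WT cells of CT26 (a line from a mouse colon carcinoma). Each of the 4 groups had 4 libraries. PD-L1 is the surface ligand by which tumour cells engage PD-1 on T cells, its gene is called CD274 (Cd274 in mouse), and the knockout had been made with CRISPR delivered by lentivirus. MDA-MB-231 cells had been grown in DMEM and CT26 cells in an RPMI medium, both with serum and antibiotics. The guide, any control vector in the WT cells, and whether the KO cells were a pool or 1 clone are not stated in the sources at hand. Nor do they say whether a group's 4 libraries were grown as separate cultures, so p-values rest on the spread among libraries alone, and this spread may be technical.

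A cell enters mitosis when cyclin B binds CDK1 and CDC25 phosphatases remove the inhibitory phosphates from the kinase. Aurora and Polo kinases then build the spindle, kinetochores attach chromosomes to its microtubules, and the spindle checkpoint restrains CDC20 until every chromosome is attached, after which securin and cyclin B are destroyed and the sister chromatids part. Many of these genes are transcribed late in the cell cycle from promoters with a CHR element (cell cycle genes homology region), which MuvB complexes bind together with B-MYB and FOXM1, and with CCAAT boxes, which NF-Y binds. They are read widely as markers of dividing cells in tumours. In RNA from a whole culture, more cells in mitosis and more RNA per mitotic cell cannot be told apart.

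The RefSeq start windows show which of these motifs stand before the starts of the genes, and not all members hold them. Of the 42 human members, 36 matched by symbol, and AURKA, TPX2, BUB3, TTK, BIRC5 and CDCA2 are named only. The 250 bases before each RefSeq start (build GRCh38.p14) were searched on both strands for the CHR letters TTTGAA and TTCGAA and for CCAAT. The 36 genes had 45 start windows, of which 20 (44.4%) held TTTGAA, 2 (4.44%) held TTCGAA and 34 (75.6%) held CCAAT. Over all 35116 start windows the shares were 13.3%, 1.19% and 32%, and over the 14255 windows of genes tested in MDA-MB-231 they were 8.94%, 1.36% and 33%. A CHR motif and CCAAT stood together in 19 member windows (42.2%), against 5.05% of all windows. A window can hold several of these motifs, and a match is a description of these windows, not of a bound site.

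These 7 windows are shown because they belong to members that moved in opposite directions in the MDA-MB-231 knockout and since all 7 hold CCAAT and all but SPC24 hold TTTGAA. Each is printed 5′ to 3′ on the strand of the gene, with the CHR letters TTTGAA, the box letters CCAAT and the reverse complements of both in capitals. HMMR (chr5:163460382-163460631, plus strand), PLK1 (chr16:23678639-23678888, plus strand), CCNB2 (chr15:59104896-59105145, plus strand) and KIF11 (chr10:92592880-92593129, plus strand) were higher in the KO libraries. KIF4A (chrX:70289854-70290103, plus strand), TOP2A (chr17:40417897-40418146, minus strand) and SPC24 (chr19:11155783-11156032, minus strand) were lower.
HMMR: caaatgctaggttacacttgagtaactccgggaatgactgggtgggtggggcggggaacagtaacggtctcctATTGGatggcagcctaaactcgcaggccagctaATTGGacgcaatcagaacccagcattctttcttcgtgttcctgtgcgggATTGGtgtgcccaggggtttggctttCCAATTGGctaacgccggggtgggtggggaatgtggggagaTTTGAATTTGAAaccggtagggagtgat
PLK1: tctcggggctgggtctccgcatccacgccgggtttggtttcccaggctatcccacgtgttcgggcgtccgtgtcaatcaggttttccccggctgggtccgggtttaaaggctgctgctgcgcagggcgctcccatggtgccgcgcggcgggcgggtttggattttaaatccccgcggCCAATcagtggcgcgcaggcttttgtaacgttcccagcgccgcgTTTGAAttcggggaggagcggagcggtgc
CCNB2: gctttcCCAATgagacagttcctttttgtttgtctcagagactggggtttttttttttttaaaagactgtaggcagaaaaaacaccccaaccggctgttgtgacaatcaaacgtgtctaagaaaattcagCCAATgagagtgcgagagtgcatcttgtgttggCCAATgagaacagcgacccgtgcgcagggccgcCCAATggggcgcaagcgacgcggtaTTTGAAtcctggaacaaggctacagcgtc
KIF11: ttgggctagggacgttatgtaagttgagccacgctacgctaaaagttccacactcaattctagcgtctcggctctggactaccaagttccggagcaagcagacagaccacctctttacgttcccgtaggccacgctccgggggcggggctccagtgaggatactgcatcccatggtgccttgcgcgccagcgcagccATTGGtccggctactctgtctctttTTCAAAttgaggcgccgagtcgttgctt
KIF4A: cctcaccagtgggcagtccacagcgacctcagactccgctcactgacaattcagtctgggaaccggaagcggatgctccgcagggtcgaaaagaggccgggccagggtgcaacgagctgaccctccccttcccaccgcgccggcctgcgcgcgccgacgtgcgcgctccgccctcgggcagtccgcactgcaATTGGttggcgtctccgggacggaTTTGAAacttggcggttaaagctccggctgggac
TOP2A: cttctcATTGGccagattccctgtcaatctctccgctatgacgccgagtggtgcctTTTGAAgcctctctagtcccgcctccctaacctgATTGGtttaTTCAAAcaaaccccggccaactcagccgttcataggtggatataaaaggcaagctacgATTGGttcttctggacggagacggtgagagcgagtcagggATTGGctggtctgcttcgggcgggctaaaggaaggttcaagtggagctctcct
SPC24: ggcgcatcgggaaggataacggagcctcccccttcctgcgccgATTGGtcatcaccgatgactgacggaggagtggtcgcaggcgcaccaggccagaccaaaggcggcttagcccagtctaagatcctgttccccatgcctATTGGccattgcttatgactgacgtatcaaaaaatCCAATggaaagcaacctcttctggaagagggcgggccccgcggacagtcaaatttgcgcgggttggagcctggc

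TTTGAA began 28 and 22 bases before the start in HMMR, 29 in PLK1, 29 in CCNB2 and 28 in KIF11. It began 34 bases before the start in KIF4A, which fell, 194 and 151 before it in TOP2A, and was not among the letters of the SPC24 window. CCAAT occurred 5 times in HMMR, 4 times each in CCNB2 and TOP2A, 3 times in SPC24 and once each in PLK1, KIF11 and KIF4A. By response in MDA-MB-231, TTTGAA stood in 12 of 24 windows of members that rose, 5 of 11 of those past no threshold and 3 of 10 of those that fell. CCAAT stood in 20 of 24, 7 of 11 and 7 of 10 of the same windows.

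The members were well expressed in both lines. Levels are in FPKM, a count of fragments scaled to transcript length and to the mapped total, as the authors computed it for each line apart, so no level was compared between lines. Group means ran from 9.67 (CDC25C) to 393 FPKM (CCNB1) in MDA-MB-231 KO and from 6.56 (HMMR) to 333 FPKM (CCNB1) in MDA-MB-231 WT. In CT26 they ran from 14.8 (Ttk) to 258 FPKM (Cdk1) in KO and from 16.8 (Ttk) to 264 FPKM (Cdk1) in WT. The median coefficient of variation over 4 libraries was 6.30% in MDA-MB-231 KO, 6.44% in MDA-MB-231 WT, 3.81% in CT26 KO and 4.11% in CT26 WT. Together the members took 0.530% to 0.552% of all FPKM in MDA-MB-231 KO libraries and 0.492% to 0.543% in WT libraries, which overlap. In CT26 they took 0.399% to 0.415% in KO libraries and 0.375% to 0.392% in WT libraries, which do not overlap. These shares depend on the total as well. The summed FPKM of the members overlapped in CT26 (3124 to 3217 in KO, 3048 to 3248 in WT). The CT26 total of all FPKM was 763174 to 783043 in KO and 782464 to 830171 in WT. In MDA-MB-231 the members' sums did not overlap (4639 to 4935 in KO, 3693 to 4142 in WT). Its totals were 847947 to 927574 in KO and 750840 to 787989 in WT.

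Depth relative to WT replicate 1 of the same line, read from ratios of low FPKM values, was 0.509 to 0.779 in MDA-MB-231 KO and 0.941 to 1.21 in WT, and 0.926 to 2.49 in CT26 KO and 0.799 to 1.14 in WT. CD274 averaged 10.6 ± 1.91 FPKM in KO and 12.2 ± 0.670 FPKM in WT libraries (SD, n = 4 each), a difference that did not pass limma's test (log2 fold change -0.20, adjusted p = 0.166) but passed after upper-quartile scaling (-0.40, adjusted p = 0.0157), quantile normalization (-0.32, 0.0425) and centring on neighbouring genes (-0.51, 0.00582). Cd274 averaged 0.526 ± 0.0552 FPKM in KO and 1.41 ± 0.127 FPKM in WT libraries, with limma's adjusted p = 1.42e-04. VIM, CD44, KRT7 and KRT18 were present in MDA-MB-231, with KRT7 at 37.8 FPKM in KO and 1370.3 FPKM in WT libraries, and the means of ESR1 and PGR were below 0.1 FPKM. Vim, Cd44 and Krt18 were present in CT26, and Krt8 stood at 0.145 FPKM in KO and 0.139 FPKM in WT, so that this marker of the label was absent. Of 11 leukocyte, endothelial and fibroblast markers, the means were under 1 FPKM in all groups except for CD14 (0.719 FPKM in MDA-MB-231 KO, 2.69 in WT), Cd14 (53.6 FPKM in CT26 KO, 17.1 in WT) and Pdgfra (2.01 FPKM in CT26 KO, 1.25 in WT); PTPRC/Ptprc and CD3E/Cd3e were at or near 0.

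In MDA-MB-231, KO libraries had higher levels of 25 of the 42 members and lower levels of 7, and 10 did not pass the test (limma on log2(FPKM + 1), Benjamini-Hochberg adjusted p below 0.05 over all 14450 genes). Members were higher in 59.5% and lower in 16.7% of cases, beside 42.6% and 25.7% of all genes tested (68.2% in all). The median log2 fold change was 0.24 over the members and 0.18 over all genes, a distance of 0.06. When libraries were scaled to the same upper quartile, the median was 0.02 over the members and -0.01 over all genes. There 12 members were higher and 10 lower, beside 32.8% and 33.6% of all genes. Changes are therefore also given relative to the median of all genes. Under the deposited values, upper-quartile scaling and quantile normalization alike, 11 members stayed higher (CDK1, CCNB2, AURKA, PLK1, TPX2, HMMR, BUB1B, BUB3, SPC25, KIF11 and CDCA3) and 7 stayed lower (CCNA2, CDC25C, BUB1, NDC80, SPC24, KIF4A and TOP2A), beside 32.4% and 24.9% of all genes. The groups of libraries did not overlap for 28 members, beside 62.7% of all genes tested.

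**Figure D1:**
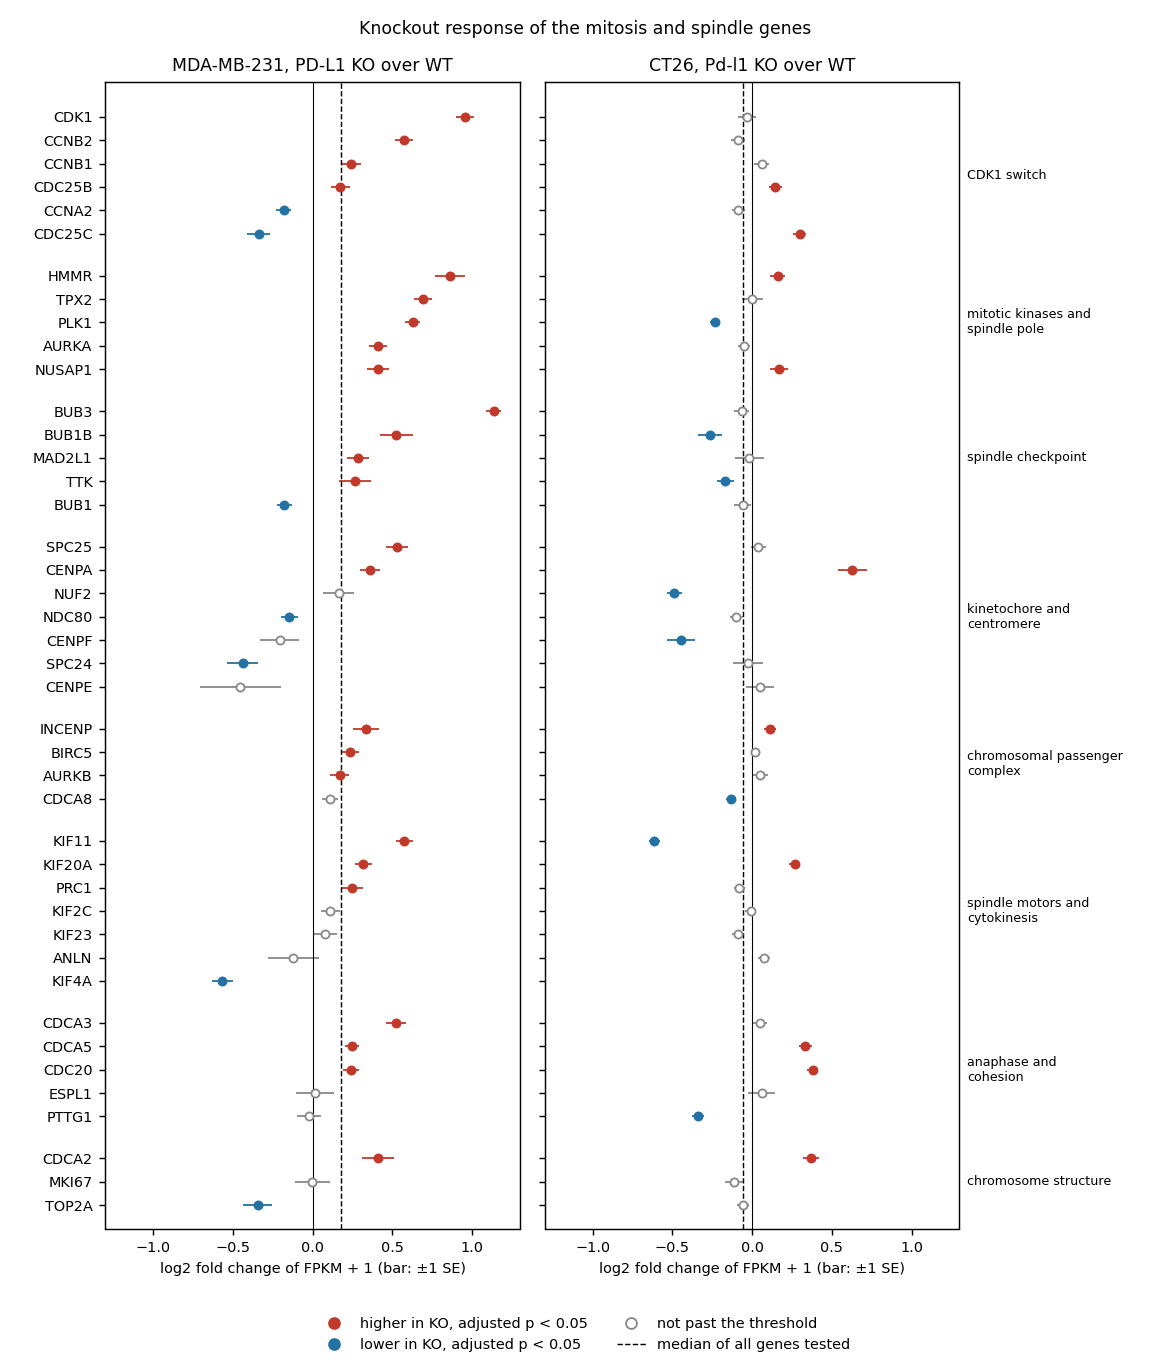
Log2 fold change (KO over WT, of FPKM + 1) with ±1 SE for each member in MDA-MB-231 (left) and CT26 (right), by role, from n = 4 libraries per group. Filled red and blue points passed limma's test as higher or lower in KO, open points did not, and the dashed line is the median of all genes tested (0.18 in MDA-MB-231, -0.06 in CT26). The 5 mitotic kinase and spindle pole genes all lie right of 0 in MDA-MB-231, and the kinetochore genes lie on both sides in both lines.

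The CDK1 switch genes split in MDA-MB-231, with 4 higher and 2 lower, beside 42.6% and 25.7% of all genes. After upper-quartile scaling 2 were higher (CDK1 and CCNB2) and 2 lower (CCNA2 and CDC25C). CDK1, the kinase that drives entry into mitosis (ENSG00000170312, chromosome 10, 60778331 to 60794852, plus strand, in GENCODE v29), had 180, 204, 206 and 189 FPKM in KO libraries, against 96.5, 97.7, 97.8 and 108 FPKM in WT libraries. Every KO library lay well above every WT library. This was a log2 fold change of 0.96, SE 0.058 (limma adjusted p = 1.08e-06), or 0.78 above the median of all genes. CCNB2, a B-type cyclin, averaged 96.0 ± 3.89 FPKM in KO and 64.2 ± 4.14 FPKM in WT libraries. CCNB1, the main mitotic cyclin, averaged 393 ± 18.8 FPKM in KO and 333 ± 25.9 FPKM in WT libraries, and its rise of 0.24 on the log2 scale was close to the 0.18 of all genes. CDC25B, a phosphatase that activates CDK1, had a rise of 0.17.

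CDC25C, the phosphatase of the same family that acts at mitotic entry, moved the other way. It had 9.05, 10.8, 9.71 and 9.09 FPKM in KO libraries, against 12.2, 12.3, 12.7 and 12.7 FPKM in WT libraries, without overlap. It fell by 0.34 on the log2 scale, SE 0.074 (limma adjusted p = 0.00304). CCNA2, the cyclin that acts in S phase and early mitosis, had 67.6, 67.3, 62.9 and 61.2 FPKM in KO libraries, against 73.8, 72.4, 73.8 and 74.2 FPKM in WT libraries. The groups did not overlap, although the log2 fold change was only -0.18.

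The 5 mitotic kinase and spindle pole genes were all higher in MDA-MB-231 KO, beside 42.6% of all genes, and also after upper-quartile scaling. Their median log2 fold change was 0.63, beside 0.18 for all genes. After centring on neighbouring genes 3 were called higher, and AURKA (0.11) and NUSAP1 (-0.09) did not pass. Other mitotic kinases, among them CDK1, TTK, AURKB and BUB1, were placed in other classes, and BUB1 was lower. HMMR, a microtubule-binding hyaluronan receptor that helps place TPX2 at spindle poles, had 11.6, 14.2, 12.3 and 12.9 FPKM in KO libraries, against 6.58, 5.79, 7.49 and 6.38 FPKM in WT libraries. TPX2, the spindle assembly factor that activates Aurora A, had 186, 204, 190 and 189 FPKM in KO libraries, against 109, 120, 118 and 128 FPKM in WT libraries. PLK1, the Polo kinase of spindle and centrosome, had 149, 142, 147 and 158 FPKM in KO libraries, against 93.3, 94.1, 95.6 and 101 FPKM in WT libraries. None of these 3 genes overlapped between groups. The log2 fold changes were 0.86 for HMMR, 0.69 for TPX2 and 0.63 for PLK1, with limma's adjusted p of 4.40e-05, 5.68e-06 and 3.94e-06. AURKA, the centrosomal Aurora kinase, averaged 161 ± 5.36 FPKM in KO and 121 ± 8.60 FPKM in WT libraries. NUSAP1, a factor that bundles spindle microtubules, averaged 202 ± 16.1 FPKM in KO and 152 ± 8.43 FPKM in WT libraries, and was the member of this class that did not pass after quantile normalization.

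**Figure D2:**
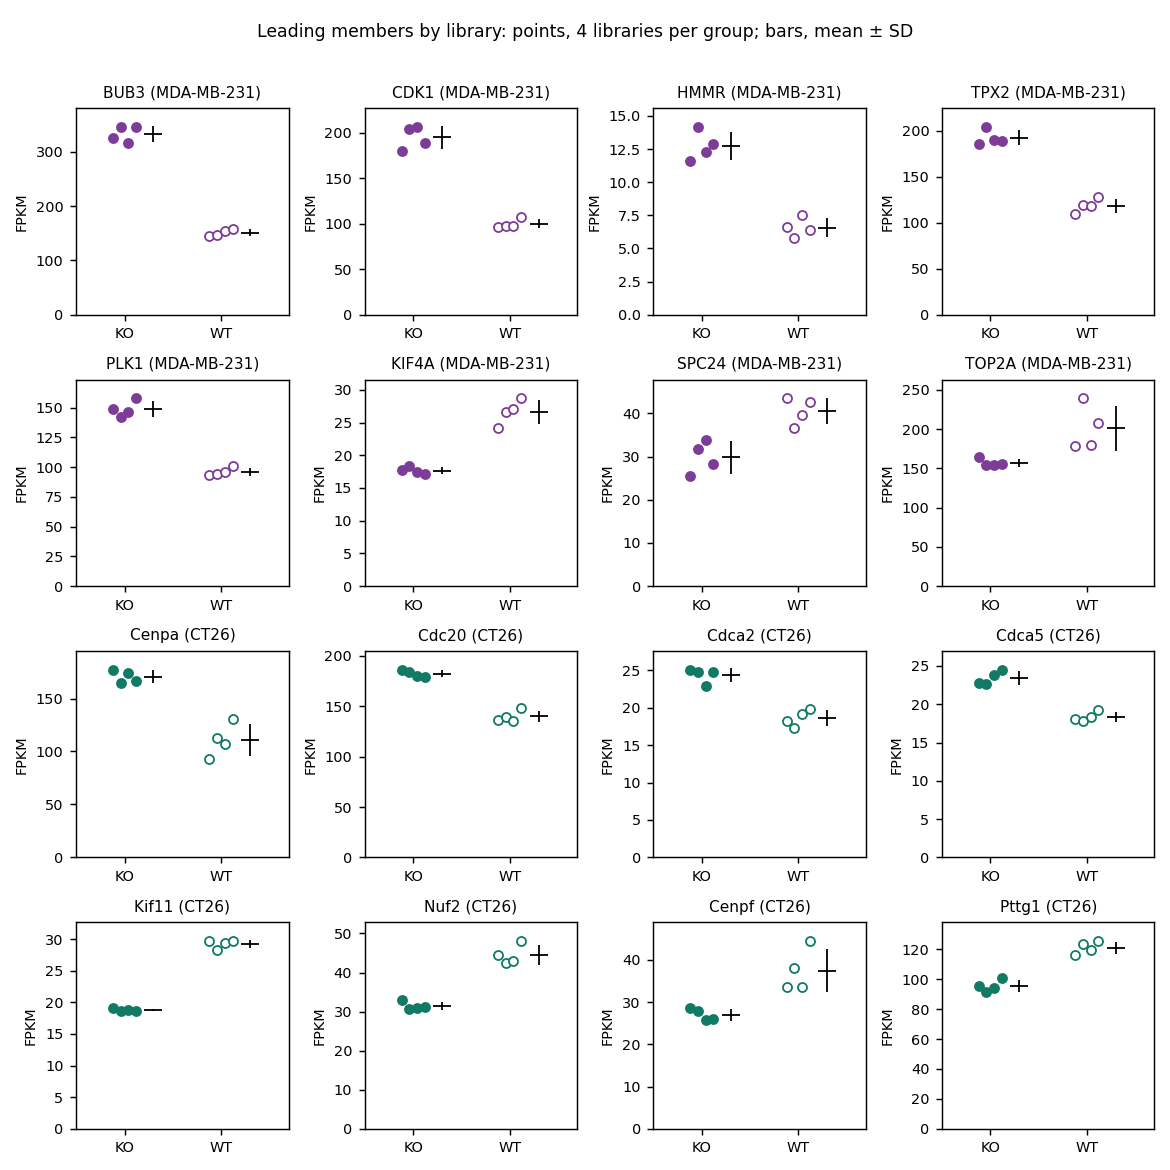
FPKM per library (points, 4 KO libraries left, 4 WT libraries right) with mean ± SD (bars) for 8 leading members in MDA-MB-231 (upper 8 panels) and 8 in CT26 (lower 8 panels), each axis starting at 0. No panel shows overlap between KO and WT; BUB3 has 317 to 346 FPKM in KO and 145 to 158 FPKM in WT, and Kif11 has 18.7 to 19.0 FPKM in KO and 28.3 to 29.7 FPKM in WT.

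Of the 5 spindle checkpoint genes, 4 were higher and 1 lower in MDA-MB-231 KO, beside 42.6% and 25.7% of all genes. After upper-quartile scaling 2 were higher (BUB1B and BUB3) and 1 lower (BUB1). BUB3, which brings the checkpoint kinase BUB1 and BUBR1 to kinetochores (ENSG00000154473, chromosome 10, 123154277 to 123170467, plus strand), had 326, 345, 317 and 346 FPKM in KO libraries, against 145, 147, 154 and 158 FPKM in WT libraries. The 2 groups lay far apart, and the mean of KO libraries was 220.5% of that of WT libraries. Its log2 fold change of 1.14 with SE 0.046 was the largest of all members in this line (limma adjusted p = 9.66e-08), and stood 0.96 above the median of all genes. BUB1B, which encodes the checkpoint protein BUBR1, had 66.2, 70.7, 68.8 and 53.8 FPKM in KO libraries, against 45.9, 49.1, 38.3 and 45.6 FPKM in WT libraries. KO replicate 4 was the lowest of its group and still above all WT libraries. MAD2L1, the checkpoint protein that binds CDC20, rose by 0.29 on the log2 scale, and TTK, the checkpoint kinase MPS1, by 0.27. TTK and CDC25B lost their calls in 6 and 5 of the 8 fits that left out a library. BUB1 itself was lower, at 43.8 ± 1.26 FPKM in KO and 49.7 ± 2.04 FPKM in WT libraries.

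The kinetochore and centromere genes did not move together in MDA-MB-231, with 2 higher, 2 lower and 3 past no threshold, beside 42.6% and 25.7% of all genes. After upper-quartile scaling 1 was higher (SPC25) and 4 lower (NDC80, SPC24, CENPE and CENPF), beside 32.8% and 33.6% of all genes. Their median log2 fold change was then -0.36. After centring on neighbouring genes 1 was higher and 3 lower. The NDC80 complex, the 4-subunit outer kinetochore complex that holds microtubules, was split as well. SPC25 had 57.8, 58.8, 56.5 and 59.9 FPKM in KO libraries, against 40.6, 43.2, 34.8 and 42.3 FPKM in WT libraries. SPC24, its direct partner in the complex, had 25.4, 31.8, 33.7 and 28.2 FPKM in KO libraries, against 43.4, 36.7, 39.7 and 42.5 FPKM in WT libraries. For both genes the groups were apart, in opposite directions, with log2 fold changes of 0.53 (limma adjusted p = 1.55e-04) for SPC25 and -0.44 (0.00307) for SPC24. NDC80 was slightly lower (-0.15), a call lost in 6 of the 8 fits that left out a library, and NUF2 did not pass the test (0.16). CENPA, the histone H3 variant of centromeres, averaged 54.2 ± 4.13 FPKM in KO and 41.9 ± 0.928 FPKM in WT libraries. CENPE, a kinetochore motor, was the most variable member, with 14.6, 17.2, 30.3 and 10.99 FPKM in KO libraries, against 23.5, 21.3, 24.6 and 26.0 FPKM in WT libraries. Its groups overlapped through KO replicate 3, and its log2 fold change of -0.45 had an SE of 0.25 (limma adjusted p = 0.143). Without that library it was -0.72 (limma adjusted p = 0.00274).

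Of the chromosomal passenger complex, which corrects faulty attachments and guides cytokinesis, 3 of 4 subunits were higher in MDA-MB-231 KO. INCENP, the scaffold, rose by 0.33 on the log2 scale, BIRC5 by 0.24 and AURKB, the kinase, by 0.17 (a call lost in 5 of the 8 fits that left out a library), and CDCA8, which encodes borealin, did not pass the test (0.11). BIRC5, the complex subunit survivin, had 82.5, 86.7, 80.5 and 88.0 FPKM in KO libraries, against 65.9, 77.1, 70.8 and 72.6 FPKM in WT libraries, without overlap. None of the 4 subunits passed after upper-quartile scaling, and their median of 0.20 was near the 0.18 of all genes.

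The spindle motors and cytokinesis genes held both a strong rise and the strongest fall of the set in MDA-MB-231. KIF11, the kinesin Eg5 that pushes spindle poles apart (ENSG00000138160, chromosome 10, 92593286 to 92655395, plus strand), had 40.6, 43.5, 44.1 and 39.8 FPKM in KO libraries, against 27.3, 26.9, 29.01 and 28.1 FPKM in WT libraries. KIF4A, the chromokinesin that works with PRC1 on the central spindle (ENSG00000090889, chromosome X, 70290090 to 70420832, plus strand), had 17.7, 18.3, 17.5 and 17.1 FPKM in KO libraries, against 24.2, 26.7, 27.1 and 28.7 FPKM in WT libraries. Both pairs of groups were apart, with log2 fold changes of 0.58 (limma adjusted p = 1.65e-05) and -0.57 (5.59e-05). KIF20A, a cytokinesis kinesin, rose by 0.32 and PRC1, the microtubule bundler of the central spindle, by 0.25. KIF2C, KIF23 and ANLN did not pass the test, and ANLN WT libraries spread from 143 to 243 FPKM.

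Among the anaphase and cohesion genes, 3 of 5 were higher in MDA-MB-231 KO and none lower, beside 42.6% and 25.7% of all genes. After upper-quartile scaling 1 was higher (CDCA3) and 1 lower (PTTG1, -0.24), and CDC20 and CDCA5 (0.03 each) did not pass. CDCA3, a protein of mitotic entry that takes part in the destruction of WEE1, had 168, 167, 154 and 163 FPKM in KO libraries, against 109, 122, 104 and 119 FPKM in WT libraries. The groups did not overlap, and the log2 fold change was 0.52 (limma adjusted p = 6.24e-05). CDC20, the activator of the anaphase-promoting complex, and CDCA5, which encodes the cohesion factor sororin, rose by 0.24 and 0.25. PTTG1, which encodes securin, averaged 310 ± 30.2 FPKM in KO and 314 ± 18.0 FPKM in WT libraries, and ESPL1, which encodes separase, 21.1 ± 3.04 FPKM in KO and 20.8 ± 2.57 FPKM in WT libraries, and neither passed the test.

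The 3 chromosome structure genes each gave a different result in MDA-MB-231, and after upper-quartile scaling only TOP2A was called, as lower. TOP2A, the topoisomerase that untangles sister chromatids, had 165, 155, 154 and 155 FPKM in KO libraries, against 178, 239, 180 and 208 FPKM in WT libraries. It fell by 0.34 on the log2 scale (limma adjusted p = 0.00856), and the spread lay mainly in WT. CDCA2, the chromatin-bound regulator of the phosphatase PP1, had 20.1, 27.9, 25.3 and 24.1 FPKM in KO libraries, against 17.2, 16.8, 19.3 and 18.6 FPKM in WT libraries. MKI67, the proliferation marker Ki-67 that coats mitotic chromosomes, had 71.3, 56.0, 69.6 and 56.8 FPKM in KO libraries, against 57.8, 75.2, 60.2 and 60.7 FPKM in WT libraries. Its groups overlapped fully, with a log2 fold change of -0.0026 and an SE of 0.11 (limma adjusted p = 0.984).

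**Figure D3:**
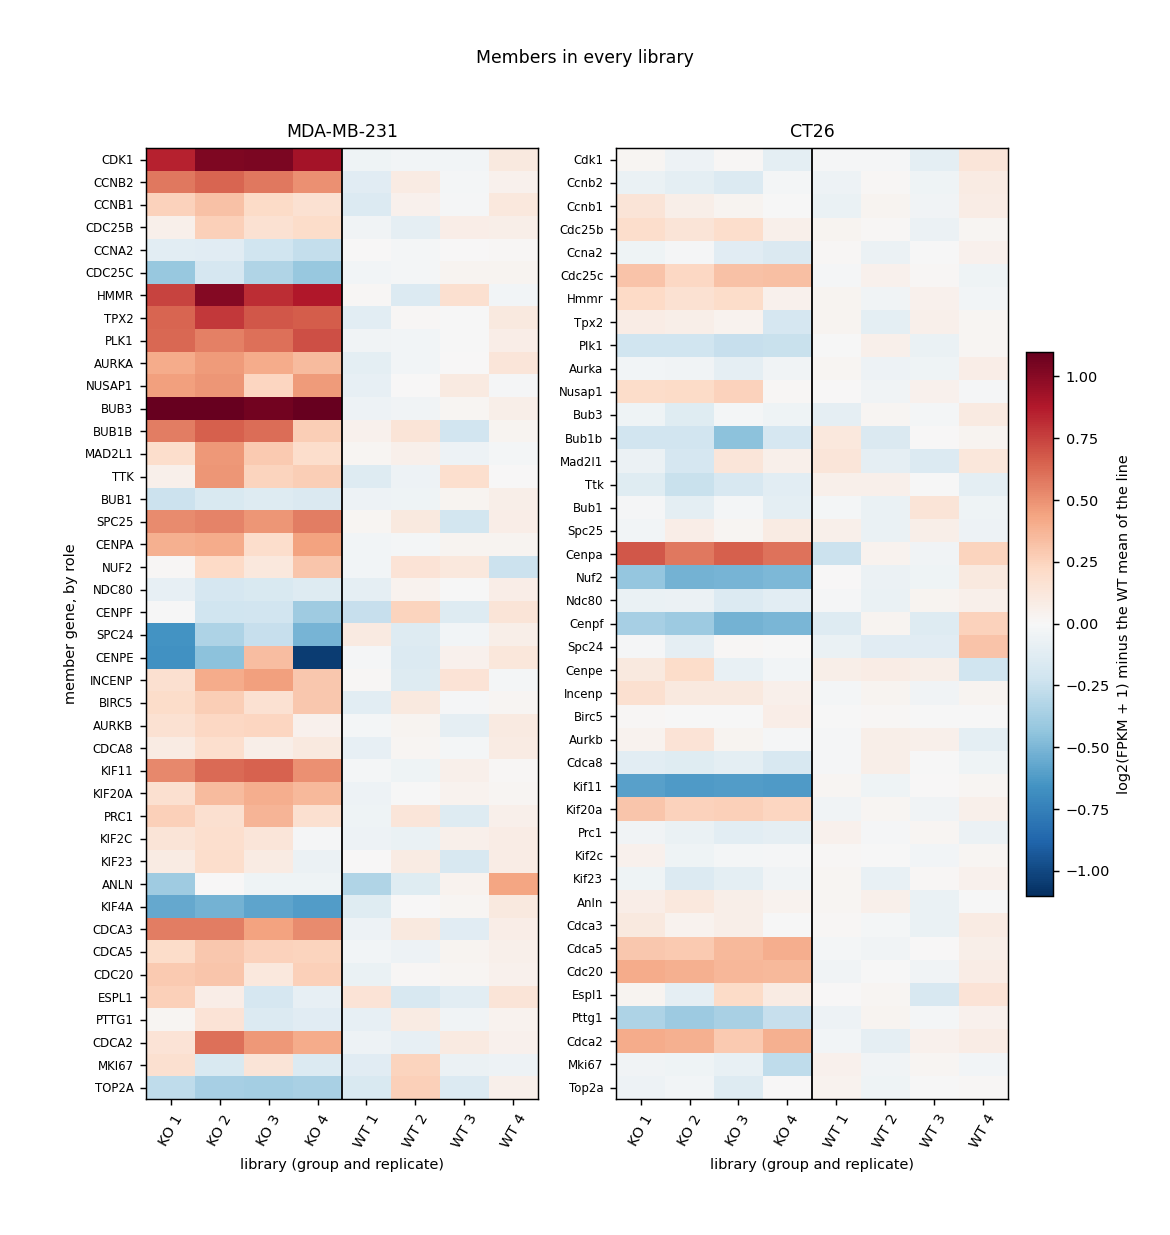
Each member (rows, by role) in each library (columns, KO 1 to 4 left of the line and WT 1 to 4 right of it), as log2(FPKM + 1) minus the WT mean of the line, in MDA-MB-231 (left) and CT26 (right); red is above the WT mean and blue below. The rows of BUB3, CDK1 and HMMR are the reddest in MDA-MB-231 KO, CENPE varies among the KO libraries of that line, and the rows of Kif11, Nuf2 and Cenpf are the bluest in CT26 KO.

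In CT26, KO libraries had higher levels of 10 of 41 members and lower levels of 8, and 23 did not pass the test. Members were higher in 24.4% and lower in 19.5% of cases, beside 22.3% and 33.4% of all 11341 genes tested (55.8% in all). The median log2 fold change was -0.02 over the members and -0.06 over all genes. After upper-quartile scaling 14 members were higher and 5 lower, beside 29.2% and 25.1% of all genes. Under the deposited values and both other scalings, 10 members stayed higher (Cdc25b, Cdc25c, Hmmr, Nusap1, Cenpa, Incenp, Kif20a, Cdc20, Cdca5 and Cdca2) and 5 lower (Plk1, Nuf2, Cenpf, Kif11 and Pttg1), beside 21.8% and 25% of all genes. The groups of libraries did not overlap for 17 members, beside 51.5% of all genes tested.

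The largest rise in CT26 was that of Cenpa, the centromeric histone (ENSMUSG00000029177, mm10 chromosome 5, 30666777 to 30674830 in the deposited table). It had 177, 164, 174 and 167 FPKM in KO libraries, against 93.0, 113, 107 and 131 FPKM in WT libraries. The groups did not overlap, and the rise was 0.63 on the log2 scale, SE 0.091 (limma adjusted p = 4.86e-04). Cdc20 had 186, 184, 180 and 179 FPKM in KO libraries, against 136, 139, 136 and 148 FPKM in WT libraries, and Cdca5 had 22.7, 22.6, 23.8 and 24.5 FPKM in KO libraries, against 18.0, 17.8, 18.4 and 19.2 FPKM in WT libraries. Both genes act around anaphase, Cdc20 as the activator of securin destruction and Cdca5 as the protector of cohesion. Cdca2 had 25.1, 24.7, 22.9 and 24.7 FPKM in KO libraries, against 18.2, 17.3, 19.2 and 19.8 FPKM in WT libraries. Cdc25c had 23.7, 22.4, 23.8 and 24.0 FPKM in KO libraries, against 18.7, 19.6, 19.1 and 18.3 FPKM in WT libraries. The log2 fold changes were 0.38 for Cdc20, 0.37 for Cdca2, 0.33 for Cdca5 and 0.30 for Cdc25c, and none of these genes overlapped between groups.

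The largest fall in CT26 was that of Kif11, the spindle kinesin that rose in MDA-MB-231 (ENSMUSG00000012443, mm10 chromosome 19, 37376403 to 37421859 in the deposited table). It had 19.0, 18.7, 18.8 and 18.7 FPKM in KO libraries, against 29.6, 28.3, 29.4 and 29.7 FPKM in WT libraries. The KO libraries were almost equal and all far below WT, with a log2 fold change of -0.61 and SE 0.032 (limma adjusted p = 1.97e-06). Nuf2, an NDC80 complex subunit, had 32.9, 30.7, 30.9 and 31.2 FPKM in KO libraries, against 44.4, 42.5, 43.0 and 48.0 FPKM in WT libraries. Cenpf, a large coiled-coil kinetochore protein, had 28.6, 27.9, 25.7 and 26.0 FPKM in KO libraries, against 33.7, 38.1, 33.5 and 44.4 FPKM in WT libraries. Neither gene overlapped between groups, with log2 fold changes of -0.49 for Nuf2 and -0.45 for Cenpf. Pttg1, which encodes securin, had 95.3, 91.6, 94.1 and 101 FPKM in KO libraries, against 116, 123, 119 and 125 FPKM in WT libraries. Its log2 fold change was -0.34, while that of Espl1, which encodes the separase that securin holds in check, was 0.06 and did not pass the test.

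The other CT26 calls were smaller. Plk1 had 61.3, 61.2, 59.8 and 60.2 FPKM in KO libraries, against 71.2, 74.1, 68.0 and 72.5 FPKM in WT libraries, and fell by 0.23 on the log2 scale. Bub1b had 76.5, 76.8, 64.8 and 78.0 FPKM in KO libraries, against 96.7, 79.8, 89.1 and 91.1 FPKM in WT libraries, and fell by 0.27. Cdca8 had 51.3, 50.7, 51.7 and 49.1 FPKM in KO libraries, against 55.2, 58.3, 55.4 and 54.0 FPKM in WT libraries, and fell by 0.13, a call lost after both other scalings. The groups of these 3 genes did not overlap. No spindle checkpoint gene was higher, and Ttk and Bub1b were the 2 of 5 that were lower. After upper-quartile scaling neither passed the test (limma adjusted p = 0.269 for Ttk and 0.0839 for Bub1b). Kif20a rose by 0.27, Nusap1 by 0.17, Hmmr by 0.16, Cdc25b by 0.15 and Incenp by 0.11, and with 1 library left out Nusap1 lost its call in 6 of the 8 fits, Incenp in 5, Ttk in 4 and Hmmr in 1. Cdk1, at 258 ± 10.8 FPKM in KO and 264 ± 18.7 FPKM in WT libraries, did not pass the test. Ccnb1, at 56.8 ± 2.47 FPKM in KO and 54.5 ± 2.60 FPKM in WT libraries, did not pass either. Nor did Mki67, which averaged 18.4 ± 1.46 FPKM in KO and 19.9 ± 0.611 FPKM in WT libraries. Ccnb1 was called higher after upper-quartile scaling (0.15, limma adjusted p = 0.00902), and its call changed after quantile normalization too. Kif4, the row that the naming rule leaves out, had a log2 fold change of -0.06 (limma adjusted p = 0.343).

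The responses of the 41 members measured in both lines were then compared in 1 fit over all 16 libraries, as KO minus WT in MDA-MB-231 less KO minus WT in CT26. The response was higher in MDA-MB-231 for 20 members and lower for 4, and 17 did not pass the test, beside 50.1% higher and 22.1% lower (72.2% in all) of 8636 paired genes. The median difference was 0.22 over members and 0.30 over all paired genes. After upper-quartile scaling the counts were 11 and 16, beside 35% and 33.9% of the paired genes. The excess of higher responses in MDA-MB-231 thus turned round among members and was nearly lost over all paired genes. In the deposited values and both other scalings, 10 members kept the higher response in MDA-MB-231 (CDK1, CCNB2, AURKA, PLK1, TPX2, HMMR, BUB1B, BUB3, NUF2 and KIF11) and 4 the lower (CDC25C, SPC24, CENPA and TOP2A), beside 34.7% and 21.9% of paired genes.

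The largest differences were 1.20 for BUB3 (SE 0.067, limma adjusted p = 6.89e-11) and 1.19 for KIF11 (SE 0.068, limma adjusted p = 1.08e-10), followed by 0.99 for CDK1, 0.86 for PLK1 and 0.79 for BUB1B. BUB3 reached this without any call in CT26, where Bub3 had 102, 96.4, 104 and 102 FPKM in KO libraries, against 99.1, 107, 104 and 114 FPKM in WT libraries. In the deposited mouse table the locus of Bub3 spans 2962 kb, so its value is uncertain. Among the human rows, 4 members have loci longer than 200 kb, wider than their genes in GENCODE v29, so that their values carry the same uncertainty. These are SPC25 (457.5 kb), CCNB2 (418.5 kb), MAD2L1 (361.2 kb) and NUF2 (244.6 kb). Some shorter loci were wider than their genes as well, so that the length of 200 kb does not mark all such rows. Among others, the locus was 8.18 times the gene in length for KIF20A, 4.37 for KIF23, 3.02 for CCNA2, 2.82 for PLK1 and 2.74 for SPC24. These values carry the uncertainty too. For 23 members the human locus was the same as that of the gene in GENCODE v29. Like Bub3, Cdk1 overlapped between the CT26 groups. It had 268, 254, 266 and 245 FPKM in KO libraries, against 262, 261, 244 and 289 FPKM in WT libraries. KIF11, PLK1, BUB1B and TTK were called higher in MDA-MB-231 KO and lower in CT26 KO, 9.76% of the 41 members beside 17.9% of the paired genes. CDC25C was called lower in MDA-MB-231 KO and higher in CT26 KO, 2.44% of members beside 5.48% of the paired genes. Its difference was -0.64 (limma adjusted p = 4.32e-06). For TTK the difference of 0.43 was lost after upper-quartile scaling.

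In both lines 9 members were called higher (CDC20, CDC25B, CDCA2, CDCA5, CENPA, HMMR, INCENP, KIF20A and NUSAP1), and no member was called lower in both. These were 22% and 0% of the 41 members, beside 11.5% and 9.04% of the paired genes. After upper-quartile scaling the counts were 3 (CDCA3, HMMR and NUSAP1) and 2 (CENPF and PTTG1), or 7.32% and 4.88% of members, beside 11.8% and 9.81% of paired genes. ANLN, CENPE, ESPL1, KIF23, KIF2C and MKI67 passed the test in neither line. CDCA8, CENPF, NUF2 and PTTG1 were called lower in CT26 KO and not called in MDA-MB-231, where CENPF (-0.42) and PTTG1 (-0.24) were called lower after upper-quartile scaling. The difference between lines passed the test for CDCA8, NUF2 and PTTG1, of which NUF2 kept it under both other scalings, and did not pass for CENPF.

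**Figure D4:**
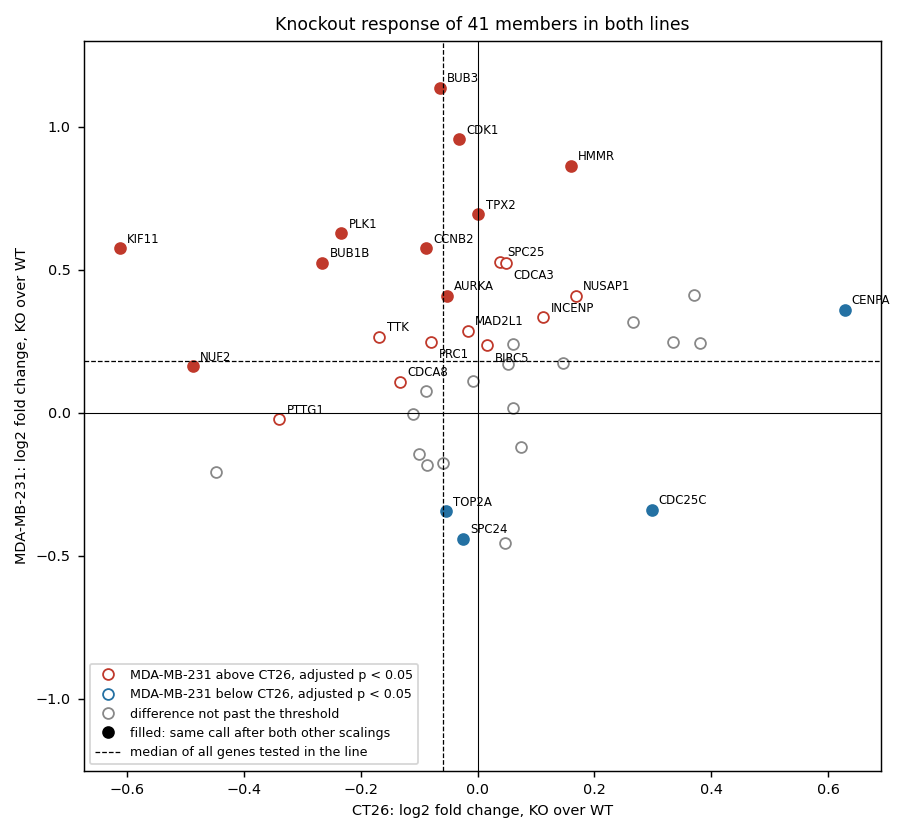
Log2 fold change (KO over WT) of 41 members in MDA-MB-231 (vertical) against CT26 (horizontal). Red and blue mark members whose response was higher or lower in MDA-MB-231 than in CT26 by limma's test, filled where both other scalings gave the same call, grey marks the rest, and dashed lines are the medians of all genes tested. KIF11 stands at 0.58 in MDA-MB-231 and -0.61 in CT26, and CDC25C at -0.34 and 0.30.

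Members were also set beside the genes around them, since fold changes of neighbouring genes were alike in both lines. For each member the median log2 fold change of the other tested genes within 10 Mb was taken (45 to 451 genes in MDA-MB-231, 53 to 240 in CT26). It ran from -0.16 to 0.71 in MDA-MB-231 and from -0.49 to 0.36 in CT26. Across the members Pearson's r between the fold change and this local median was 0.54 in MDA-MB-231 (n = 42) and 0.84 in CT26 (n = 41), beside 0.28 and 0.41 over all genes. These are descriptions across genes, which share libraries and in part windows and are not independent.

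In MDA-MB-231 all 4 members on chromosome 10 lay in windows that were higher in KO, with local medians of 0.71 for BUB3, 0.68 for MKI67, 0.60 for CDK1 and 0.51 for KIF11, and the other 550 tested genes of this chromosome had a median of 0.52. The 5 members on chromosome 15 (CCNB2, NUSAP1, BUB1B, KIF23 and PRC1) lay where the other 453 genes had a median of 0.44. With each gene centred on its local median, 13 members were higher and 12 lower, beside 31.7% and 31.6% of all genes. BUB3 then stood 0.43 above its surroundings, CDK1 0.36, HMMR 0.51, TPX2 0.36, PLK1 0.49 and SPC25 0.41. These 6 of 42 members were called higher under every scaling too, beside 25.8% of all genes. KIF11 stood 0.07 above its surroundings and CCNB2 0.06, and neither passed the test. KIF4A, SPC24, CDC25C, TOP2A, BUB1 and NDC80, 6 of 42 members, stayed lower under every scaling and against their surroundings, beside 23% of all genes. MKI67, level in FPKM, was at -0.69 against its surroundings. CDC25B was called higher in the deposited values and lower against its surroundings (-0.26).

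In CT26 the 3 largest falls lay in windows that were lower in KO, with local medians of -0.47 for Kif11, -0.49 for Nuf2 and -0.44 for Cenpf. Nuf2 and Cenpf lie on chromosome 1, where the other 656 tested genes had a median of -0.46, and neither passed the test against its surroundings. Kif11 stayed lower by 0.14. It lies 7.99 Mb from the targeted gene Cd274 on chromosome 19, whose own local median was -0.27, while the other 388 tested genes of that chromosome had a median of -0.09. Cenpa (local median 0.36), Cdca2 (0.27), Cdc25c (0.24) and Kif20a (0.24) lay in windows that were higher in KO, and of these Cenpa kept its call. Cdc20, Hmmr, Cdca5, Nusap1 and Cdc25b also stayed higher, and Pttg1 and Plk1 lower. Thus 6 of 41 members were higher and 3 lower under all scalings and against their surroundings, beside 15.1% and 18.8% of all genes. What these local shifts rest on was not tested.

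**Figure D5:**
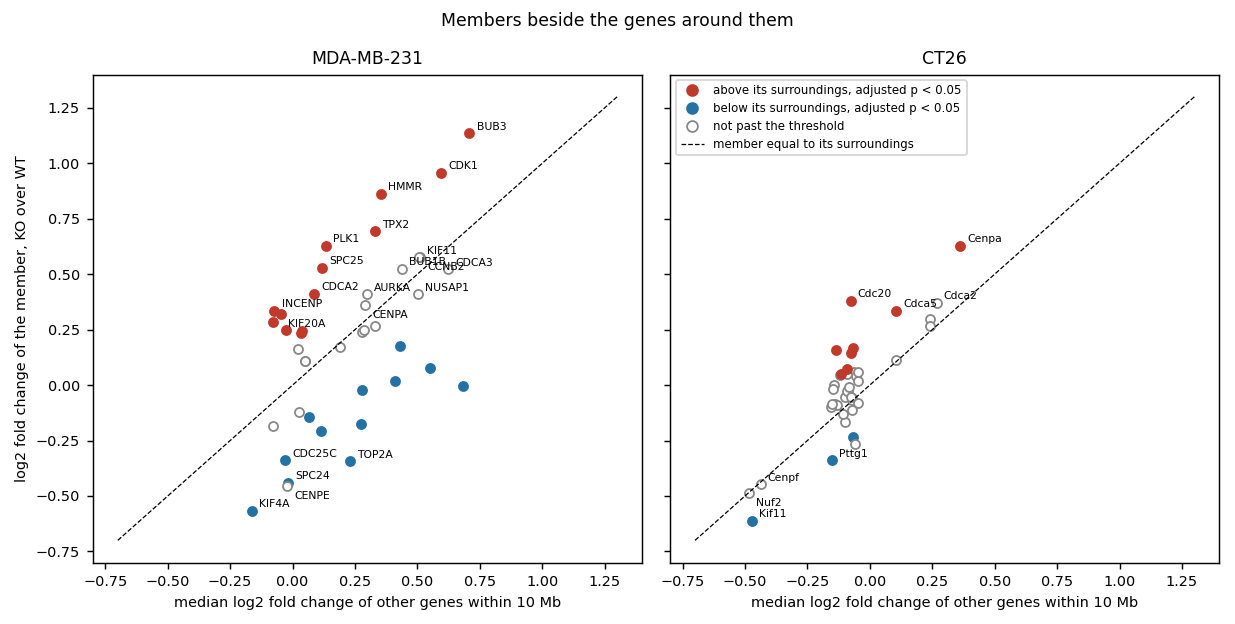
Log2 fold change (KO over WT) of each member against the median log2 fold change of the other tested genes within 10 Mb, in MDA-MB-231 (left) and CT26 (right). Red and blue points stood above or below their surroundings (adjusted p below 0.05), and open points did not. The test took limma's standard error and treated the local median as known. The dashed line marks equality. In CT26 the points follow the line from Nuf2 and Kif11 at the lower left to Cenpa at the upper right, and in MDA-MB-231 they scatter more widely around it.

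Beyond the members, 125 related genes in 7 lists were read from the same fits, and the gene named first from a list is the one with the smallest adjusted p unless stated otherwise. In MDA-MB-231, 65 of 125 (52.0%) were higher and 17 (13.6%) lower in KO, beside 42.6% and 25.7% of all genes. With upper-quartile scaling 48 of 125 were higher and 34 lower, beside 32.8% and 33.6% of all genes. In CT26, 35 (28.0%) were higher and 39 (31.2%) lower, beside 22.3% and 33.4%. With upper-quartile scaling 45 of 125 were higher and 29 lower there, beside 29.2% and 25.1% of all genes. In MDA-MB-231 the anaphase-promoting complex list had 11 of 18 higher and 3 lower, with its smallest adjusted p in ANAPC7, a scaffold subunit, at 105 ± 1.57 FPKM in KO and 50.8 ± 4.68 FPKM in WT libraries. The inner kinetochore list had 12 of 23 higher and 2 lower, with CENPN, a CENP-A reader, at 161 ± 15.4 FPKM in KO and 74.4 ± 8.53 FPKM in WT libraries. Other mitotic kinases, phosphatases and guards had 11 of 18 higher and 1 lower, with the checkpoint gene MAD1L1 at 130 ± 2.99 FPKM in KO and 40.6 ± 7.91 FPKM in WT libraries. Other kinesins and microtubule factors had 11 of 19 higher and 3 lower. Condensin subunits had 4 of 8 higher and 2 lower, with NCAPD2 at 295 ± 19.3 FPKM in KO and 134 ± 5.73 FPKM in WT libraries. Gamma-tubulin and centrosome genes had 5 of 16 higher and 1 lower, with TUBGCP3 at 27.6 ± 0.912 FPKM in KO and 11.0 ± 0.316 FPKM in WT libraries. The 1 lower gene was PLK4, the kinase that starts centriole duplication.

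In CT26 other kinesins and microtubule factors had 7 of 19 higher and 8 lower, with Ckap2 and Dlgap5 at log2 fold changes of 0.60 and 0.58. The largest falls of that list, named after their values were seen, were those of Kifc3 (-0.70) and Aspm (-0.62). Other mitotic kinases, phosphatases and guards had 4 of 18 higher and 6 lower, with Nek2, a centrosome kinase, at 21.9 ± 0.975 FPKM in KO and 33.6 ± 1.02 FPKM in WT libraries. Inner kinetochore genes had 6 of 23 higher and 6 lower, the anaphase-promoting complex list 6 of 18 and 2, condensin subunits 3 of 8 and 2, and gamma-tubulin and centrosome genes 2 of 16 and 4.

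The regulators of G2/M transcription, the factors that act on the promoters of these genes, moved in both directions in both lines. In MDA-MB-231, 11 of 23 (47.8%) were higher, 5 (21.7%) lower and 7 past no threshold, beside 42.6% and 25.7% of all genes. In CT26, 7 of 23 (30.4%) were higher, 11 (47.8%) lower and 5 past no threshold, beside 22.3% and 33.4% of all genes. CDKN1A, which encodes the CDK inhibitor p21, averaged 7.56 ± 0.833 FPKM in MDA-MB-231 KO and 96.7 ± 4.71 FPKM in WT libraries, a log2 fold change of -3.52 (limma adjusted p = 3.25e-09). In CT26 it went the other way, with Cdkn1a at 157 ± 1.52 FPKM in KO and 69.8 ± 3.08 FPKM in WT libraries (1.16, limma adjusted p = 1.80e-07). E2F4 and TFDP1, subunits of the E2F repressor complexes, rose by 1.97 and 1.45 on the log2 scale in MDA-MB-231, and E2F3 by 0.95. Lin9 and Lin54, core MuvB subunits, fell by 0.82 and 0.71 in CT26, and E2f1 by 0.36. Of the other subunits of that complex on the list, Lin52 rose by 0.48, Rbbp4 fell by 0.25 and Lin37 (0.24) did not pass the test in CT26. FOXM1 and MYBL2, named after their values were seen as activators of promoters with the motifs above, rose by 0.82 and 0.56 in MDA-MB-231. In CT26 Foxm1 fell by 0.45, and Mybl2 (-0.08) did not pass the test. NFYA, a subunit of NF-Y named for the same reason, fell by 1.12 in MDA-MB-231, and Nfya fell by 0.24 in CT26. NFYB, another subunit, went the other way, with a rise of 0.93 in MDA-MB-231 and of 0.36 (Nfyb) in CT26. The remaining subunit, NFYC, did not pass the test in MDA-MB-231 (0.20), and Nfyc fell by 0.43 in CT26. Against their surroundings several of these changes were smaller, at 0.16 for FOXM1, 0.20 for MYBL2, 1.14 for E2F4, 0.77 for TFDP1, 0.42 for NFYB and -0.59 for NFYA in MDA-MB-231. In CT26 they were -0.33 for Lin9 and -0.21 for E2f1, and Lin52 (-0.09), Rbbp4 (-0.12) and Nfyc (-0.35) no longer passed the test. The members' calls were not tested against the level of any regulator.

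The counting of overlapping genes could touch some members, since no source at hand says whether strand was used. In GENCODE v29, 23 of the 42 human members overlap another gene, 19 of them one on the opposite strand, such as PDZD11 for KIF4A. BUB3, CDK1, TPX2, CDC20 and MKI67 overlap none. Of 10 near-identical copies of members in the human table, CDC20P1 had the highest level, at 3.42 FPKM in its highest library. By the q-value of the authors' deposited table, below 0.05, 25 members were called in MDA-MB-231 and 12 in CT26, and limma called these too. Limma alone called 7 more in MDA-MB-231 (CDC25B, NDC80, SPC24, AURKB, BIRC5, PRC1 and TOP2A). In CT26 it alone called 6 more (Cdc25b, Nusap1, Bub1b, Cenpf, Incenp and Cdca8). The authors' q-value was 0.181 for SPC24, 0.102 for TOP2A and 0.171 for Cenpf.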

How the data were processed

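Total RNA of 16 libraries, 4 per group, was sequenced. Per the submitters' processing notes, bcl2fastq 2.18, STAR 2.5.4a, Cufflinks 2.2.1 and Cuffdiff were used with builds hg38 and mm10. The annotation, the use of strand and the settings are not stated in those notes. The authors deposited FPKM per gene and library in 1 table per line, with a p-value and q-value of their own comparison in each table. FPKM are not counts, and the depth in reads is unknown; ratios of low values gave relative depths.

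Genes with at least 1 FPKM in at least 4 of 8 libraries were tested as log2(FPKM + 1) in limma 3.58.1 (R 4.3.3), with a trend in the variance and no covariate beside the group, two-sided, adjusted by Benjamini-Hochberg over all genes of the table, threshold 0.05. The pseudocount of 1 understates changes of low genes. Genes the authors marked as failed or with too much data were not tested. The contrast between lines used genes paired by symbol. CD274 was also given an exact permutation test. Alternatives were upper-quartile scaling, quantile normalization, pseudocounts of 0.1 and 5, no filter, a filter of 5 FPKM, the replicate number as a block and leaving out each library. Centring on genes within 10 Mb (at least 20 genes) was added after the data had been seen. Its p-values used limma's standard error of the uncentred fold change. They treat the local median as known and so leave out its own error. The scripts were tested on simulated data. Figures and motif counts used Python 3.11.15.

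The members and gene lists were chosen with earlier results of these data known. Named with values per library were, per line, the 5 largest rises and falls among called members, the member of smallest adjusted p per role, and the 5 largest differences between lines; up to 4 genes per related list; and the targeted gene. CENPE, MKI67, FOXM1, MYBL2, NFYA and further members given as means were chosen after their values were seen.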

Additional observations from a re-analysis of the deposited data

Results flagged for a closer look

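Single libraries stood far from the other 3 of their group in 11 of 166 groups of 4 libraries (by Dixon's test), and chance alone gives such a gap in about 1 in 20 groups. In MDA-MB-231 these were the KO libraries of NUSAP1 (replicate 3, 178 FPKM, lowest), ANLN (replicate 1, 137 FPKM, lowest) and TOP2A (replicate 1, 165 FPKM, highest), and the WT libraries of CDK1 (replicate 4, 108 FPKM, highest) and MKI67 (replicate 2, 75.2 FPKM, highest). In CT26 they were the KO libraries of Tpx2 (replicate 4, 77.1 FPKM, lowest), Bub1b (replicate 3, 64.8 FPKM, lowest) and Cdca2 (replicate 3, 22.9 FPKM, lowest), and the WT libraries of Cdc25b (replicate 3, 89.3 FPKM, lowest), Spc24 (replicate 4, 53.9 FPKM, highest) and Cenpe (replicate 4, 20.7 FPKM, lowest).

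The knockout response differed between lines for 24 members by limma's test of the difference, given here as the response in MDA-MB-231 minus that in CT26 on the log2 scale. It was above 0 for BUB3 (1.20), KIF11 (1.19), CDK1 (0.99), PLK1 (0.86), BUB1B (0.79), HMMR (0.70), TPX2 (0.69), CCNB2 (0.66), NUF2 (0.65), SPC25 (0.49), CDCA3 (0.47), AURKA (0.46), TTK (0.43), PRC1 (0.33), PTTG1 (0.32), MAD2L1 (0.30), CDCA8 (0.24), NUSAP1 (0.24), INCENP (0.22) and BIRC5 (0.22). It was below 0 for CDC25C (-0.64), SPC24 (-0.41), TOP2A (-0.29) and CENPA (-0.27).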

How the results depend on the processing

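The scaling of libraries and window centring (each gene set against its neighbours) moved more counts than the other choices did. In MDA-MB-231 the members called higher numbered 12 after upper-quartile scaling, 12 after quantile normalization and 13 after window centring, and those called lower 11 after quantile normalization and 12 after window centring. The related lists had 34 lower after upper-quartile scaling, 32 after quantile normalization and 26 after window centring. In CT26 the members called lower numbered 5 after upper-quartile scaling and 3 after window centring, and the related lists had 20 lower after window centring. Members with the higher response in MDA-MB-231 numbered 11 and 10 after upper-quartile scaling and quantile normalization, and those with the lower response 16 and 15. CD274 passed the test after upper-quartile scaling (-0.40), quantile normalization (-0.32) and window centring (-0.51). The cause was not tested.

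The sign turned for 7, 9 and 9 of 42 members in MDA-MB-231 and for 12, 10 and 12 of 41 in CT26 after upper-quartile scaling, quantile normalization and window centring. Among members called in the deposited values these were 2, 4 and 7 in MDA-MB-231 and 0 in CT26, and in the difference 5 and 7 after the first pair of settings. In MDA-MB-231 the called members were CCNB1 (-0.038), CDC25B (-0.26), NUSAP1 (-0.091), TTK (-0.063), AURKB (-0.020), PRC1 (-0.041) and CDCA3 (-0.10) after window centring, CDC25B (-0.041) and AURKB (-0.045) after upper-quartile scaling, and CDC25B (-0.066), AURKB (-0.11), BIRC5 (-0.0035) and PRC1 (-0.0034) after quantile normalization. Of the uncalled CT26 members whose values are given in full, it turned for Cdk1 (0.060, 0.056 and 0.056) and Bub3 (0.027, 0.023 and 0.0044) after upper-quartile scaling, quantile normalization and window centring. The called differences between lines that turned were those of NUSAP1 (-0.066 and -0.12), MAD2L1 (-0.0039 and -0.030), INCENP (-0.083 and -0.095), BIRC5 (-0.088 and -0.12) and CDCA8 (-0.063 and -0.085) after upper-quartile scaling and quantile normalization, and of PRC1 (-0.0038) and PTTG1 (-0.0015) after quantile normalization.

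Leaving out each library in turn gave 22 to 24 members higher and 6 to 7 lower in MDA-MB-231, 7 to 10 higher and 7 to 9 lower in CT26, and 18 to 23 above and 3 to 5 below in the difference. In at least 1 of these fits it turned the sign of 4 members in MDA-MB-231, 7 in CT26 and 3 in the difference, all uncalled in the deposited values, such as MKI67 (-0.061 to 0.080), Cdk1 (-0.069 to 0.012) and Cenpe (-0.025 to 0.091). Libraries with the same replicate number deviated together little or not at all (no correlation over 0.1). In CT26, however, the 4 same-number correlations (0.027 to 0.078) were all above those of the other pairs (0.021 at most). Whether the numbers pair libraries in CT26 is therefore unknown. With the number as a block, 24 members were higher and 6 lower in MDA-MB-231, and 9 higher and 8 lower in CT26. Pseudocounts of 0.1 and 5 and the filter of 5 FPKM changed no call of a member. The shallower MDA-MB-231 KO libraries limit what can be read from low FPKM.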
